A study of Mus musculus with 8 samples.

Results

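The genes described here encode serum response factor (SRF), its coactivators of the myocardin family (Myocd, Mrtfa and Mrtfb), its ternary complex factors (Elk1, Elk3 and Elk4) and the LIM-domain proteins Fhl1 and Fhl2. They were chosen by symbol, as the 9 rows of the deposited gene table that carry these names, of 32859 genes in all. All 9 were counted well enough to be tested, among 18439 genes. The libraries were made from primary hepatic portal fibroblasts, which surround the portal tract of the liver and can turn into matrix-producing myofibroblasts. The cells were sorted as Clec3b-tdT+ by flow cytometry from livers of normal Clec3bCreERT2;R26tdT mice, in which Cre under the control of Clec3b switches on the red reporter. Transduction was with a Klf4 lentivirus in 4 libraries, called Lenti-Klf4, and with the control virus in the other 4, called Lenti-Ctrl. The reporter alleles and the lentiviral transduction were common to both groups. The labels give neither the age of the mice nor the time after transduction. They also do not tell whether each library had its own mouse or culture, so p-values measure the spread between these libraries, which may be technical.

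SRF is a DNA-binding transcription factor that recognises the CArG box and takes its activity from rival groups of cofactors. Myocardin-related transcription factors are held by monomeric actin and act on SRF once that actin has been built into filaments, which turns on contractile and cytoskeletal genes, including the smooth muscle actin of myofibroblasts. Ternary complex factors are ETS-domain proteins that ERK phosphorylates, and they drive immediate early genes. KLF4 is a zinc-finger transcription factor known in smooth muscle cells as an opponent of myocardin and of the contractile genes.

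Total counts ran from 57306334 to 87361995 per library. Klf4 itself was at 87.3 ± 3.82 CPM, a read count normalised to the library size, in Lenti-Ctrl against 228 ± 17.9 CPM in Lenti-Klf4 (SD, n = 4 each), which is 2.61-fold higher and in the direction of the label. Between the groups 13307 of 18439 genes passed an adjusted p of 0.05 by edgeR's quasi-likelihood test with Benjamini-Hochberg adjustment, which is 72.2%, with 6914 higher and 6393 lower in Lenti-Klf4. With libraries scaled by their totals alone, the split was 8328 higher and 5172 lower, and in a limma fit of log2(FPKM + 1), where FPKM is scaled by gene length as well, it was 8509 higher and 5210 lower. Fibroblast markers were abundant in both groups, with a summed level of 25933 to 27140 CPM in Lenti-Ctrl and 10261 to 11820 CPM in Lenti-Klf4, and of 9 tested markers 8 fell and 1 rose. Clec3b, which drove the reporter, was near 0 in both, at 0.0171 ± 0.0342 and 0.280 ± 0.174 CPM (SD, n = 4 each), and was too low to be tested.

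Markers of other cell types moved with the groups, although the cells had been sorted on tdT. All 14 macrophage and leukocyte markers were lower in Lenti-Klf4, with a summed level of 1891 to 1973 CPM in Lenti-Ctrl and 49.1 to 64.4 CPM in Lenti-Klf4, where Clec4f and Cx3cr1 had 0 counts. All 9 tested smooth muscle and pericyte markers were lower as well, from a sum of 770 to 778 CPM to one of 40.1 to 55.1 CPM. Pln, the remaining marker of that list, had 0 counts in Lenti-Ctrl. All 8 endothelial markers were lower, from 406 to 411 CPM to 31.3 to 40.4 CPM. The part of these cell types in the results below was not tested. In bulk RNA, fewer cells of a type and less RNA per cell cannot be told apart.

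Of the 9 genes, 8 were lower in Lenti-Klf4 and none was higher by edgeR's quasi-likelihood test, against a background of 34.7% of tested genes called lower. The value of Elk1 did not pass. Their median log2 fold change was -0.82, against 0.034 over all tested genes. A fall past a log2 fold change of -1 was met by 4 of the 9, compared with 17.7% of tested genes, and a fall past -2 by 3 of the 9, compared with 9.06%. In 8 of the 9 genes the groups did not overlap in CPM, as in 69.2% of tested genes. The largest falls were those of Myocd, Fhl1 and Mrtfa, and the smallest that passed was that of Srf.

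**Figure D1:**
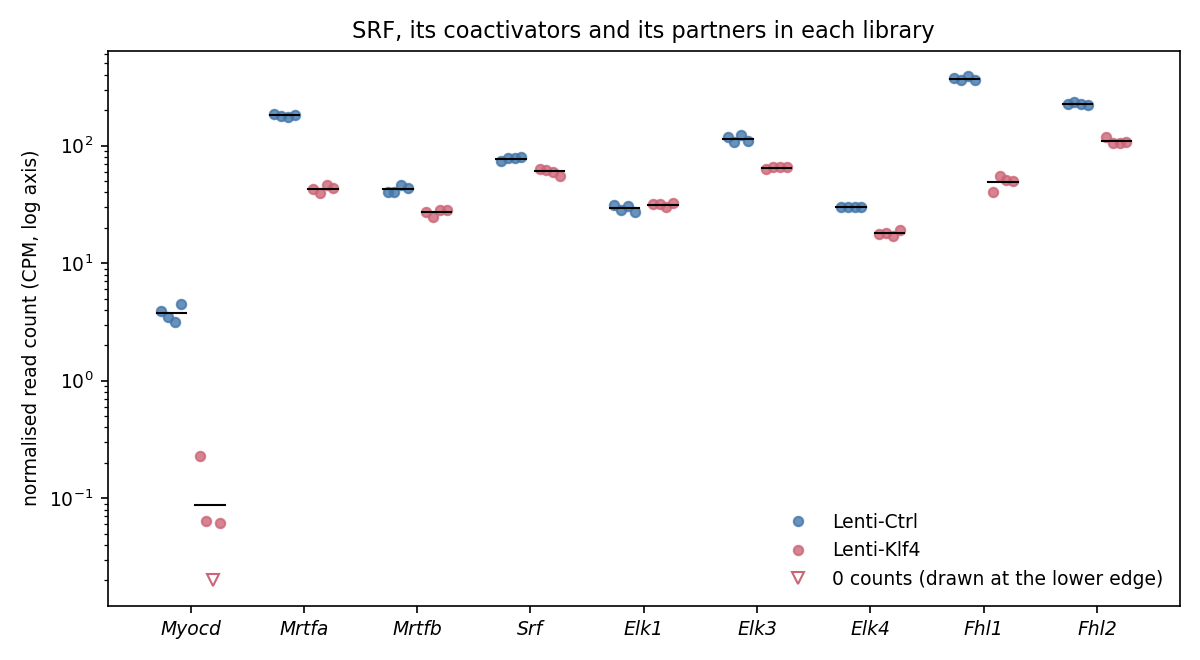
Normalised read count (CPM, log axis) of the 9 genes in each of the 8 libraries, with Lenti-Ctrl in blue and Lenti-Klf4 in red. Each point is 1 library, bars are group means, and the open triangle stands for the Lenti-Klf4 library with 0 counts of Myocd. Only the points of Elk1 overlap between the groups.

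Myocd, on the minus strand of chromosome 11 (GRCm39, chr11:65067387-65160815), encodes myocardin, the coactivator of smooth and cardiac muscle that stays in the nucleus and needs no release from actin. It was at 3.95, 3.50, 3.13 and 4.47 CPM in Lenti-Ctrl replicates 1 to 4 and at 0.228, 0.0643, 0 and 0.0620 CPM in Lenti-Klf4 replicates 1 to 4. Every Lenti-Ctrl library lay more than 10 times above every Lenti-Klf4 library. These values rest on 937 counts in Lenti-Ctrl against 28 in Lenti-Klf4, of which 20 came from replicate 1. The 0 of replicate 3 allows a level of up to 0.0456 CPM, which is 3 counts. The pooled level was 37.8-fold lower in Lenti-Klf4, with an exact 95% interval of 26.0 to 57.3 that covers counting error only. By edgeR the log2 fold change was -5.27, with an SE of 0.543 (adjusted p = 1.96e-06), and without Lenti-Klf4 replicate 1 it was -6.44. Myocd was the scarcest of the 9 genes in both groups, at 0.504 FPKM in Lenti-Ctrl against 0.0132 FPKM in Lenti-Klf4.

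Mrtfa, on the minus strand of chromosome 15 (chr15:80896482-81074958), encodes the actin-regulated coactivator MRTF-A, also called MKL1. Its level was 186, 179, 176 and 181 CPM in the 4 Lenti-Ctrl libraries, in order, and 42.7, 39.8, 45.9 and 43.7 CPM in the 4 Lenti-Klf4 libraries. The groups were far apart relative to their spread, and Mrtfa was 4.19-fold lower in Lenti-Klf4. By edgeR the log2 fold change was -2.07, with an SE of 0.0445 (adjusted p = 1.08e-12), and 8.79% of tested genes had a lower one.

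Mrtfb, on the plus strand of chromosome 16 (chr16:13074345-13232927), encodes the closely related MRTF-B. Lenti-Ctrl replicates 1 to 4 held 40.6, 39.9, 46.1 and 43.5 CPM, and Lenti-Klf4 replicates 1 to 4 held 27.5, 24.6, 28.3 and 28.4 CPM. All Lenti-Klf4 libraries lay below all Lenti-Ctrl libraries, and edgeR gave a log2 fold change of -0.64 with an SE of 0.0658 (adjusted p = 1.84e-06). All 3 coactivators fell, by unequal amounts.

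The ratio of the coactivators within each library does not depend on how libraries are scaled. Per length, in FPKM, Mrtfa was 6.41, 6.29, 5.34 and 5.81 times Mrtfb in Lenti-Ctrl and 2.17, 2.27, 2.26 and 2.15 times Mrtfb in Lenti-Klf4. The groups did not overlap. The log2 ratio of their counts was 2.09 in Lenti-Ctrl against 0.66 in Lenti-Klf4, a difference of -1.42 (exact permutation test, two-sided, p = 0.0286, adjusted p = 0.0381 over 8 ratios). The smallest p that 4 against 4 libraries allow is 0.0286, and all 8 genes that fell reached it as single values of log2(CPM + 0.1). The log2 ratio of Myocd to Mrtfa fell from -5.59 to -9.62, a difference of -4.03 (adjusted p = 0.0381 by the same exact test). Without any 1 Lenti-Ctrl library that difference was -4.10 to -3.94, with an adjusted p of 0.0653 to 0.0762 by the exact test, which no longer passed. Its size depends on the amount added, since Lenti-Klf4 replicate 3 had 0 counts of Myocd, and the SD in Lenti-Klf4 was 2.12. With 5 counts added in place of 0.5 the difference was -2.65, and from FPKM with 0.1 added it was -0.56 (adjusted p = 0.0381 for each, exact permutation test). Of the FPKM sum of the family, Mrtfa held 84.1 ± 0.978% in Lenti-Ctrl against 68.8 ± 0.645% in Lenti-Klf4, and Mrtfb held 14.2 ± 1.04% and 31.1 ± 0.559% (SD, n = 4 each). Mrtfa was the main transcript of the family in both groups. The sum itself was 28.9 ± 0.502 FPKM in Lenti-Ctrl against 9.67 ± 0.571 FPKM in Lenti-Klf4.

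**Figure D2:**
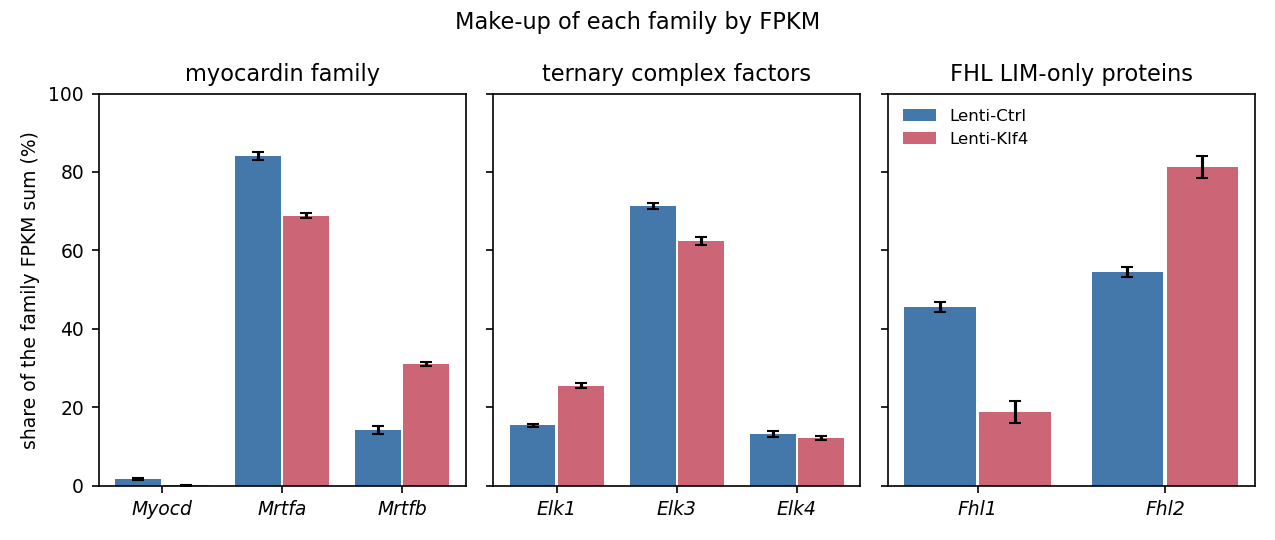
Share of each gene in the FPKM sum of its own family (percent, bars from 0; mean with SD over 4 libraries), with Lenti-Ctrl in blue and Lenti-Klf4 in red. Mrtfb rises from 14.2% to 31.1% of the myocardin family, Elk1 from 15.4% to 25.5% of the ternary complex factors, and Fhl2 from 54.5% to 81.3% of the pair of FHL genes.

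Srf, on the minus strand of chromosome 17 (chr17:46859255-46867101), encodes the factor that the myocardin family and the ternary complex factors bind. It is a known target of its own product. The level of Srf was 74.1, 78.5, 77.8 and 79.8 CPM in the 4 Lenti-Ctrl libraries, in order, and 63.8, 62.6, 59.9 and 55.0 CPM in the 4 Lenti-Klf4 libraries. The groups did not overlap, but the fall was small, and edgeR gave a log2 fold change of -0.36 with an SE of 0.0489 (adjusted p = 2.41e-05). With libraries scaled by their totals alone it was -0.17 (adjusted p = 0.00765). Per length, Srf was 0.955 ± 0.0467 times Mrtfa in Lenti-Ctrl against 3.13 ± 0.332 times Mrtfa in Lenti-Klf4 (SD, n = 4 each). The log2 count ratio of Srf to Mrtfa rose by 1.70 (exact permutation test, adjusted p = 0.0381). The ratio of Srf to Mrtfb overlapped between the groups, with a difference of 0.28 (p = 0.0571, adjusted p = 0.0653 by the exact permutation test), and without Lenti-Klf4 replicate 4 it was 0.34 (adjusted p = 0.0327).

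The promoter letters of these genes are shown because SRF binds the CArG box, and 3 of the 8 genes with a RefSeq promoter entry hold that motif. The search covered 250 bases before to 50 bases after each RefSeq start on GRCm38.p6, on both strands, which differs from the build of the gene coordinates above. Each line gives the 120 bases just before a start, 5′ to 3′ on the strand of the gene, with CArG boxes in capitals. They lie at chr17:46556163-46556282 (minus strand) for Srf, at chrX:56779563-56779682 (plus strand) for Fhl1, and at chr1:43196762-43196881 and chr1:43163962-43164081 (minus strand) for the starts A and B of Fhl2.
Srf: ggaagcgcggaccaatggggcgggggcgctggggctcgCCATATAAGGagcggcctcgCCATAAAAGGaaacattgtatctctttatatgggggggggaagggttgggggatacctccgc
Fhl1: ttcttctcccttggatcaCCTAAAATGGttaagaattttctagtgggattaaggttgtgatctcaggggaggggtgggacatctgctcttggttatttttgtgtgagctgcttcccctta
Fhl2 A: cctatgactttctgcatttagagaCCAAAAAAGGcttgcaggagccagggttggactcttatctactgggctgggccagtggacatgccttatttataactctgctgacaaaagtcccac
Fhl2 B: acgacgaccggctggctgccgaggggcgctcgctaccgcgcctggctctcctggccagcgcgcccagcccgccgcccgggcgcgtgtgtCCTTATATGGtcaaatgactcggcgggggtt

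The Srf promoter held 2 CArG boxes, beginning 82 and 62 bases before the start. The Fhl1 promoter shown held 1, beginning 102 bases before its start, and the other Fhl1 promoter, at chrX:56786277-56786576, held 0. The Fhl2 promoters held 1 each, at 96 and 31 bases. CArG boxes were found in 4 of the 15 promoters of the 8 matched genes, and in 535 of 32851 mouse promoters, which is 1.63%. No CArG box was found in these windows of Mrtfa, Mrtfb, Elk1, Elk3 or Elk4. The letters CACCC or GGGTG, the core that KLF proteins bind, were in 12 of the 15 promoters and in 57.5% of all promoters. The letters CCGGAA or TTCCGG, the core of an ETS site, were in 5 of the 15 and in 14.9% of all promoters, and the Srf promoter was among them. Counted by gene, 28.4% of the 12089 tested genes with a promoter entry held these ETS letters, against 4 of the 8 genes. The KLF letters were in 67.0% of those tested genes and in all 8, and the CArG box in 1.63% and in 3 of the 8. A gene counted as holding a motif if any of its promoters did. The 8 genes had 15 promoters, against 32851 for all 27025 genes with an entry, and the number of promoters per gene was not matched. Each motif was searched on its own, so matches of different motifs may overlap. A match is a description of the letters and neither a binding site nor a cause.

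Elk1, on the minus strand of chromosome X (chrX:20799634-20816847), encodes the best-known ternary complex factor, an activator once ERK has phosphorylated it. Lenti-Ctrl replicates 1 to 4 held 31.0, 28.1, 30.9 and 27.3 CPM, and Lenti-Klf4 replicates 1 to 4 held 31.8, 31.8, 29.8 and 32.6 CPM. The groups overlapped, and the log2 fold change of 0.10 did not pass (SE 0.0607, adjusted p = 0.147 by edgeR). By exact two-sided permutation p was 0.143. The call depends on the scaling: with library totals alone Elk1 was higher, at 0.30 (adjusted p = 6.79e-04 by edgeR), a scaling that shifts the median of all tested genes by 0.19 on the log2 scale. Elk1 shares 8887 bases with Uxt on the same strand, and the sources used here do not say how reads of overlapping genes were counted.

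Elk3, on the minus strand of chromosome 10 (chr10:93083276-93146997), encodes Net, a ternary complex factor that represses until it is phosphorylated. Its level was 117, 108, 123 and 110 CPM in the 4 Lenti-Ctrl libraries, in order, and 63.2, 65.9, 65.5 and 65.7 CPM in the 4 Lenti-Klf4 libraries. The Lenti-Klf4 libraries were close together and all below Lenti-Ctrl, and edgeR gave a log2 fold change of -0.82 with an SE of 0.0450 (adjusted p = 4.88e-09). Cdk17, which overlaps Elk3 by 18330 bases on the other strand, also fell, from 57.4 to 37.7 CPM, and reads of both cannot be told apart if counting ignored the strand.

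Elk4, on the plus strand of chromosome 1 (chr1:131935345-131960350), encodes SAP-1, the remaining ternary complex factor. Lenti-Ctrl replicates 1 to 4 held 29.9, 30.1, 29.8 and 30.1 CPM, and Lenti-Klf4 replicates 1 to 4 held 17.6, 17.9, 17.1 and 19.2 CPM. The Lenti-Ctrl libraries were almost equal and all above Lenti-Klf4, and edgeR gave a log2 fold change of -0.74 with an SE of 0.0588 (adjusted p = 1.61e-07). Its opposite-strand neighbour Mfsd4a, which overlaps it by 9807 bases, was at 10.9 CPM in Lenti-Ctrl against 5.65 CPM in Lenti-Klf4.

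Elk1 took a larger place among the ternary complex factors in Lenti-Klf4. Per length, Elk1 was 0.216 ± 0.00626 times Elk3 in Lenti-Ctrl against 0.409 ± 0.0179 times Elk3 in Lenti-Klf4 (SD, n = 4 each). The log2 count ratio of Elk1 to Elk3 rose by 0.92, and that of Elk1 to Elk4 by 0.85 (adjusted p = 0.0381 for each, exact permutation test). Elk3 remained the most abundant of the 3 per length, at 71.3 ± 0.738% of their FPKM sum in Lenti-Ctrl against 62.3 ± 1.02% in Lenti-Klf4. The ratio of Elk3 to Elk4 differed by -0.071 on the log2 scale and overlapped between the groups (p = 0.314, exact permutation test). The FPKM sum of the 3 genes was 30.6 ± 1.66 in Lenti-Ctrl against 22.8 ± 0.580 in Lenti-Klf4.

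Fhl1, on the plus strand of chromosome X (chrX:55777147-55838706), encodes a LIM-only protein abundant in skeletal and cardiac muscle. Its level was 373, 360, 391 and 363 CPM in the 4 Lenti-Ctrl libraries, in order, and 40.4, 55.6, 51.4 and 49.9 CPM in the 4 Lenti-Klf4 libraries. Every Lenti-Klf4 library lay far below every Lenti-Ctrl library, and the level was 7.54-fold lower. By edgeR the log2 fold change was -2.92, with an SE of 0.0804 (adjusted p = 8.53e-12), and 4.87% of tested genes had a lower one.

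Fhl2, on the minus strand of chromosome 1 (chr1:43162234-43236144), encodes a LIM-only protein that binds SRF and is itself a known target of MRTF and SRF. Lenti-Ctrl replicates 1 to 4 held 225, 236, 225 and 223 CPM, and Lenti-Klf4 replicates 1 to 4 held 119, 106, 106 and 107 CPM. The groups did not overlap, and Fhl2 was 2.07-fold lower. The test by edgeR gave a log2 fold change of -1.05 with an SE of 0.0422 (adjusted p = 2.50e-10). Gm8210 overlaps Fhl2 by 483 bases on the other strand and rose from 5.84 to 83.0 CPM. It had 23404 counts in Lenti-Klf4, and if counting ignored the strand, reads from the shared bases cannot be told apart, so the size of the fall of Fhl2 is uncertain to that extent.

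Fhl1 and Fhl2 fell by unequal amounts. Per length, Fhl1 was 0.848, 0.780, 0.886 and 0.830 times Fhl2 in Lenti-Ctrl and 0.173, 0.267, 0.247 and 0.239 times Fhl2 in Lenti-Klf4. The log2 count ratio fell by 1.87, and the groups did not overlap (adjusted p = 0.0381, exact permutation test). Their FPKM sum was 190 ± 3.39 in Lenti-Ctrl against 70.5 ± 1.45 in Lenti-Klf4 (SD, n = 4 each).

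The order of the 9 genes by FPKM differed between the groups. In Lenti-Ctrl, Fhl2 (104 FPKM) and Fhl1 (86.6 FPKM) led, and Mrtfa (24.3 FPKM), Srf (23.2 FPKM) and Elk3 (21.8 FPKM) came next. Mrtfa overlapped Srf, and Srf overlapped Elk3. Elk1 (4.71 FPKM), Mrtfb (4.09 FPKM) and Elk4 (4.05 FPKM) followed, with overlap between neighbours. In Lenti-Klf4, Fhl2 (57.4 FPKM) still led, followed by Srf (20.7 FPKM). Elk3 (14.2 FPKM) and Fhl1 (13.2 FPKM) overlapped each other, and Mrtfa (6.65 FPKM) lay between them and Elk1 (5.81 FPKM). Mrtfb (3.00 FPKM) and Elk4 (2.78 FPKM) overlapped.

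Targets of the MRTF type were all lower in Lenti-Klf4. Of 24 genes on this list, most of them contractile or cytoskeletal, 24 fell and 0 rose, and the median log2 fold change was -2.23. Over all tested genes 34.7% were called lower, and the median was 0.034. Their summed level was 35068 to 35984 CPM in Lenti-Ctrl and 9163 to 9216 CPM in Lenti-Klf4. Acta2, the smooth muscle actin that marks myofibroblasts, was at 5027 ± 112 CPM in Lenti-Ctrl against 503 ± 3.84 CPM in Lenti-Klf4 (SD, n = 4 each; log2 fold change -3.32). The tropomyosin genes Tpm1 and Tpm2, whose products line actin filaments, had log2 fold changes of -2.22 and -3.23. Lmod1, an actin nucleator of smooth muscle, fell from 118 to 4.32 CPM. Several genes of this list are also made by smooth muscle cells, whose markers were lower in Lenti-Klf4, as given above. Myh11 and Cnn1 are on both lists, so the fall of the summed markers is in large part that of the same genes. Myh11 was at 340 CPM in Lenti-Ctrl against 18.8 CPM in Lenti-Klf4, and Cnn1 at 81.9 CPM against 3.53 CPM. The sum of all smooth muscle and pericyte markers was 770 to 778 CPM in Lenti-Ctrl and 40.1 to 55.1 CPM in Lenti-Klf4.

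Targets of the ternary complex factor type moved mostly the other way. Of 11 immediate early genes, 9 rose and 2 fell, and the median log2 fold change was 1.59. Egr1, a zinc-finger factor, was at 31.2 CPM in Lenti-Ctrl against 625 CPM in Lenti-Klf4. Fos, a subunit of AP-1, was at 5.83 and 41.0 CPM, and the early response gene Ier2 at 36.7 and 203 CPM. The 2 that fell were Mcl1, a survival factor of the BCL2 family, with a log2 fold change of -0.74, and Egr4, which had 53 counts in Lenti-Ctrl against 0 in Lenti-Klf4. With the Lenti-Klf4 group set to 3 counts in total, Egr4 was at least 19.8-fold lower. Over all tested genes 37.5% were called higher and 34.7% lower. Markers of macrophages, which also express immediate early genes, were lower in Lenti-Klf4, and their part in these values was not tested.

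**Figure D3:**
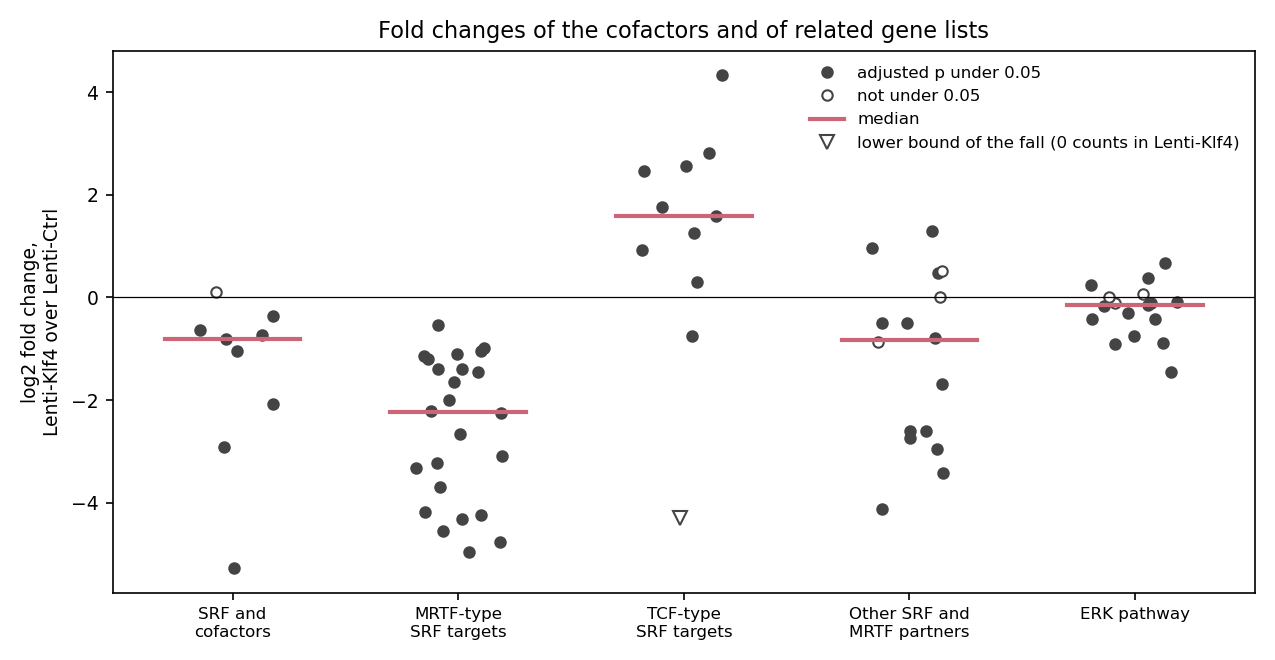
Log2 fold change of Lenti-Klf4 over Lenti-Ctrl for SRF and its cofactors and for 4 related gene lists. Each point is 1 gene, filled where the adjusted p was under 0.05, the bars are medians, and the open triangle is the bound for Egr4. All 24 MRTF-type targets lie below 0, and 9 of 11 targets of the ternary complex factor type lie above it.

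Among other partners of SRF and the MRTF proteins, 10 of 16 tested genes fell, 3 rose and 3 did not pass, with a median of -0.82. With library totals alone 10 fell and 5 rose, with a median of -0.63, and with log2(FPKM + 1) 9 of 15 fell and 5 rose, with a median of -0.28. Of all tested genes, 34.7% were called lower and 37.5% higher in the main fit. Csrp3 and Fhl5 were too low to be tested. The LIM-domain genes Csrp1 and Csrp2, which encode scaffolds that join SRF to GATA factors in smooth muscle, had log2 fold changes of -2.73 and -2.60. Gata4, which encodes one such factor, fell from 141 to 23.4 CPM, and Hey2, a repressor downstream of Notch, fell from 8.46 to 0.490 CPM. The 3 that rose were Scai, an inhibitor of MRTF proteins (16.9 to 41.8 CPM), Smad3 and Prrx1, and they are named after their values were seen. Fhl3, a close relative of Fhl1 and Fhl2, was at 42.4 CPM in both groups (log2 fold change 0.0017, adjusted p = 0.984), but passed as higher with library totals alone (0.20, adjusted p = 0.0160). Phactr1, an actin-binding protein with the RPEL motif of the MRTF proteins, did not pass either (0.51, adjusted p = 0.102 by edgeR), but passed as higher with library totals alone (0.71, adjusted p = 0.0296) and by voom (0.65, adjusted p = 0.0293). It was at 2.63 CPM in Lenti-Ctrl replicate 4 against 7.58 to 8.05 CPM in the other Lenti-Ctrl libraries, and without that library its log2 fold change was 0.25 (adjusted p = 0.0505).

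On the ERK pathway to the ternary complex factors, 11 of 17 genes fell, 3 rose and 3 did not pass, with a median of -0.16 on the log2 scale. With library totals alone 6 rose and 6 fell, with a median of 0.039, so the direction of this list depended on the scaling. In the main fit 34.7% of all tested genes were called lower and 37.5% higher, with a median of 0.034. Spry1, an inhibitor of the pathway, fell from 78.0 to 28.5 CPM. The kinase genes Map2k1 and Mapk3 had log2 fold changes of -0.90 and -0.89. Map2k2 (0.0046, adjusted p = 0.928) and Hras (-0.10, adjusted p = 0.0974 by edgeR) were the most abundant that did not pass, but with library totals alone Map2k2 passed as higher (0.20, adjusted p = 5.55e-04), and with DESeq2's size factors (RLE scaling) Hras passed as lower (-0.13, adjusted p = 0.0368).

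The genes nearest in pattern to each of the 9 were ranked by the root mean square difference of centred log2(CPM + 0.5) over the 8 libraries, among 11008 candidates. Nearest to Mrtfa were Akap12 (0.0539) and Lgmn (0.0552), and nearest to Mrtfb were Ets1 (0.0445) and Gorasp2 (0.0564). Myocd was closest to Ccdc88b (0.184) and Lmo2 (0.185), with larger differences than those of the other 8 genes. By edgeR the log2 fold changes of Ccdc88b and Lmo2 were -3.28 and -2.89, smaller falls than the -5.27 of Myocd. The added 0.5 CPM exceeds the Myocd mean of 0.0885 CPM in Lenti-Klf4 and flattens its fall on this scale. Srf was closest to Rilpl2 (0.0311) and Grk2 (0.0388). Fhl2 had Tubb6 (0.0280) and the actin gene Actb (0.0291) as neighbours, and Fhl1 had Mmp12 (0.0416) and Gpr39 (0.0537). Elk3 lay nearest to Gnaq (0.0326) and Ccng1 (0.0335), and Elk4 to Cant1 (0.0284) and Rab1a (0.0292). The neighbours of Elk1 were Baz2b (0.0298) and the pseudogene Rpl10-ps3 (0.0265), whose reads may be shared with other copies. All of these patterns include the difference between the same 2 groups.

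In the authors' deposited table of 11361 genes, 8 of the 9 are listed, and Myocd is not. Adjusted p-values in the authors' deposited table were under 0.05 for 7 of them, with Elk1 at 0.782. The authors' deposited table marks Mrtfa (log2 fold change -2.15) and Fhl1 (-3.00) as down and the other 6 as stable.

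**Figure D4:**
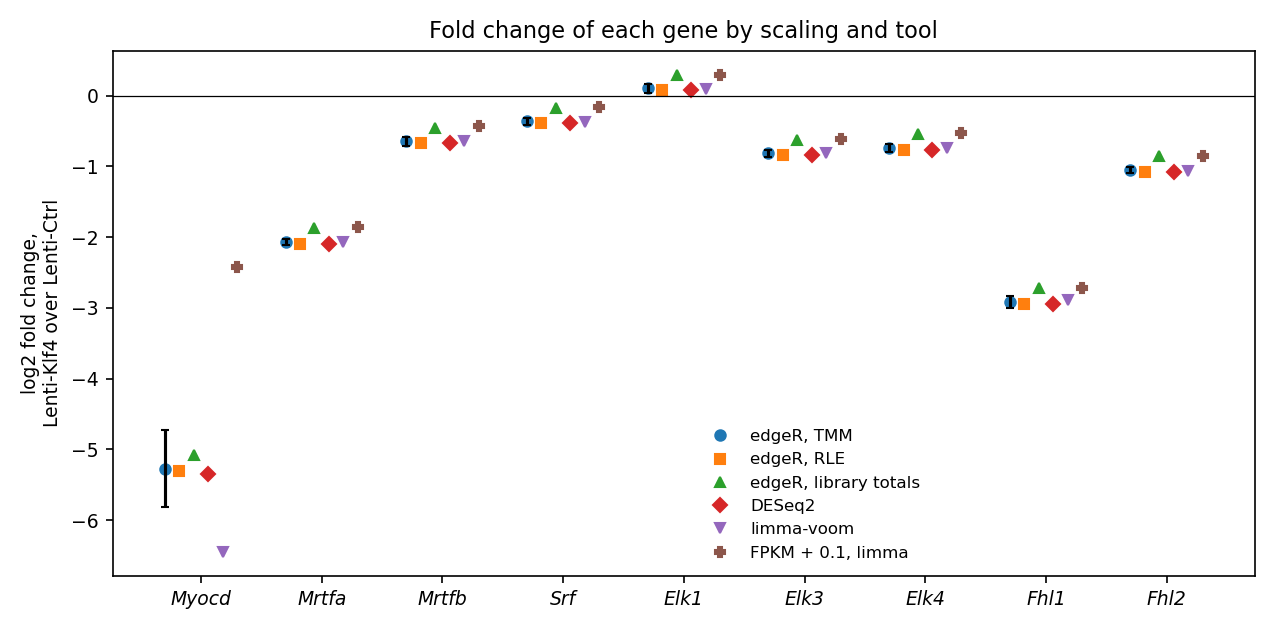
Log2 fold change of each of the 9 genes (Lenti-Klf4 over Lenti-Ctrl) under the main setting, with its SE, and under other ways of processing. Elk1 stays above 0 and the other 8 genes stay below 0, and among the 6 settings drawn Myocd moves most, from -6.45 by voom to -2.42 with log2(FPKM + 0.1). With log2(FPKM + 1), not drawn, Myocd is at -0.57.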

How the data were processed

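RNA was measured by poly(A), strand-marked, paired-end sequencing in 8 libraries, per the labels' protocols. The authors deposited raw counts per gene and FPKM values, which are scaled by length and library, with gene coordinates on GRCm39. Per the submitters' processing notes, the tools were HISAT2 2.2.1, cutadapt 1.9 and StringTie 2.1.6, besides DESeq2. The sources used here do not say how reads were counted or with which strand setting. A second deposited table holds, per the file headers, the DESeq2 log2 fold change, a mean normalised signal, a test statistic (score), a p-value and an adjusted p-value per gene.

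Counts were tested with edgeR 4.0.16 under R 4.3.3 (filterByExpr, TMM scaling, a model of group alone, quasi-likelihood F test, Benjamini-Hochberg adjustment over 18439 genes, threshold 0.05). CPM use TMM-scaled totals. Values are means ± SD, and SE is that of the log2 fold change. Single genes (log2 CPM with 0.1 added) and 8 within-library log2 count ratios (0.5 added) were compared by exact two-sided permutation over 70 splits. Libraries of the same replicate number did not deviate together (r of -0.0054 to 0.022), so the fit was not paired. Intervals and floors cover counting error only, since no molecular identifiers are named for these reads. Promoter sequences are from RefSeq (GRCm38.p6).

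Alternatives were other scalings and filters, DESeq2 1.42.0, limma 3.58.1 on counts (voom) and on log2 FPKM, a replicate block, and each library left out. The genes and lists were chosen with earlier results of these data known. Named were the 9 genes, Klf4, from each related list the 4 genes with the smallest adjusted p and the 2 most abundant that did not pass, and the 2 genes of at least 5 CPM nearest in pattern to each of the 9. Genes of the marker lists are given by their counts and sums. Any others were named after their values were seen. A gene that this rule named and 1 related list are not reported here. Proteins were not analysed here.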

Additional observations from a re-analysis of the deposited data

Results flagged for a closer look

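In 2 of 18 groups tested, 1 gene in 1 group each, a library stood apart from the other 3 by Dixon's criterion at the 95% level, and chance flags about 1 in 20 such groups. Elk3 was lowest in Lenti-Klf4 replicate 1, at 63.2 CPM against 65.5 to 65.9 CPM in the others (gap over range 0.867). Fhl2 was highest in Lenti-Klf4 replicate 1, at 119 CPM against 106 to 107 CPM in the others (0.963). The same library held 20 of the 28 Myocd counts of its group. Its Klf4 level was 201 CPM against 234 to 241 CPM in the others, its Fhl1 level 40.4 CPM against 49.9 to 55.6 CPM, and its summed fibroblast markers 10261 CPM against 11360 to 11820 CPM. Its summed smooth muscle and pericyte markers were at 40.1 CPM against 49.4 to 55.1 CPM. The part of these differences in the values above was not tested.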

How the results depend on the processing

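Over 19 alternatives, the 8 genes that fell stayed lower and past 0.05 in every one, and Elk1 passed as higher with library totals alone (0.30, also 0.30 as a single value by the exact permutation test) and in the 3 limma fits of log2 FPKM. The count over all genes ran from 11904 to 14200, and was 12918 with a replicate block, which lost none of the 8 calls. The fall of Myocd was -0.57 with 1 added to FPKM, -2.42 with 0.1 added and -6.45 by voom. Srf was at -0.16, and Mrtfb at -0.35, with 1 added to FPKM. With the replicate block, sign flips over 4 pairs cannot give a p under 0.125, and the ratios had the same differences of -1.42 (Mrtfa to Mrtfb), -4.03 (Myocd to Mrtfa), 1.70 (Srf to Mrtfa), 0.92 (Elk1 to Elk3), 0.85 (Elk1 to Elk4) and -1.87 (Fhl1 to Fhl2), with an adjusted p of 0.143. The difference in the ratio of Myocd to Mrtfa shrank to -2.65 with 5 counts added and to -0.56 from FPKM with 0.1 added. Leaving out each library in turn, the ratio of Myocd to Mrtfa ran from -4.73 to -3.04 and lost its call without any 1 of the Lenti-Ctrl libraries. That of Srf to Mrtfb ran from 0.21 to 0.34 and passed without Lenti-Klf4 replicate 4 (0.34, adjusted p = 0.0327). Values near 0 that did not pass changed sign: Fhl3 with RLE scaling and DESeq2 (-0.026 each), a 1 CPM filter (-0.043), voom (-0.0044) and single libraries left out (-0.049 to 0.042). Map2k2 did so with RLE (-0.024), the 1 CPM filter (-0.040), DESeq2 (-0.023) and libraries left out (-0.024 to 0.029). With library totals alone and log2 FPKM with 1 added, 0.1 added or 1 added without a filter, Hras was at 0.093, 0.091, 0.098 and 0.091. The cause was not tested. Depth limits Myocd in Lenti-Klf4, with 28 counts.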

Other observations

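Across all genes with a RefSeq promoter, 197 tested genes held a CArG box, and 83 of them (42.1%) were lower and 64 (32.5%) higher in Lenti-Klf4, with a median log2 fold change of -0.10. Over the 12089 tested genes with a promoter entry, 36.9% were lower and 40.6% higher, with a median of 0.039. Of the MRTF-type targets with an entry, 4 of 18 held the motif (Actg1, Cnn2, Myl9 and Vcl), and of the immediate early genes 1 of 7 (Egr2). These genes were named after their promoters were searched.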
